A study of Homo sapiens with 16 samples.

Results

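Microtubules are built from dimers of alpha and beta tubulin, and human cells carry several genes, or isotypes, of each. The 10 tubulin genes described here were chosen by name as 4 alpha isotypes (TUBA1A, TUBA1B, TUBA1C and TUBA4A) and 6 beta isotypes (TUBB, TUBB1, TUBB2A, TUBB3, TUBB4B and TUBB6), out of 35052 genes measured. All 10 had enough reads to be tested, among 17559 tested genes. They were followed in K562 cells, an established human leukaemia line of wild-type genotype that carries erythroid features and can be driven towards a megakaryocyte-like state. The line was treated with 25 nM phorbol 12-myristate 13-acetate (PMA), an activator of protein kinase C, and ribosome-depleted total RNA was sequenced after 0 h, 0.5 h, 1.5 h, 3 h, 6 h, 24 h, 48 h and 72 h. There were 2 libraries for each of the times, and the medium was changed after 24 and 48 h. The 0 h libraries were the untreated reference, and no group kept without PMA for a later time was analysed here. The labels do not say whether the 2 libraries of a time point came from separate cultures, so p-values measure the spread between these libraries only.

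Beta tubulin isotypes differ most in their C-terminal tails, where motors and other microtubule-associated proteins bind and where tubulin is modified after translation. TUBB1 is the beta isotype of megakaryocytes and platelets, where it forms the microtubule coil that gives the platelet its disc shape, and inherited defects in it lower the platelet count. TUBB3 is best known from neurons, TUBB2A and TUBB4B are widely made, TUBB is the common beta isotype of dividing cells, and TUBB6 is a minor isotype found in many tissues. TUBA1A, TUBA1B and TUBA1C encode nearly identical alpha tubulins, whereas TUBA4A is an alpha isotype of platelets and neurons. Cells hold their tubulin mRNA in balance with free tubulin: the ribosome-associated protein TTC5 recognises the first residues of newly made tubulin and recruits, through SCAPER, the CCR4-NOT complex that degrades the mRNA.

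Library totals ran from 27285773 to 54056289 estimated reads. Values below are either CPM, reads per 1000000 of the scaled library size, which compares one gene between libraries, or TPM, a level per transcript length, which compares genes with each other. A gene was called higher or lower at an adjusted p under 0.05 in edgeR's quasi-likelihood test, fitted to all genes and all 16 libraries, and log2 fold changes carry the standard error (SE) of that fit. All 12 erythroid marker genes examined were tested. At 6 h 8 were lower and none higher, against 29.4% of all genes lower and 27.8% higher. At 24 h 10 were lower and 2 higher (26.6 and 31.7% of all genes). At 72 h 7 were lower and 2 higher (26.9 and 31.7% of all genes). Their summed level was 5722 to 6492 TPM at 0 h, 2393 to 2811 TPM at 24 h, 4236 to 5116 TPM at 48 h and 3845 to 4930 TPM at 72 h. Among the megakaryocyte markers, GP1BA, GP9, PF4, SELP and TREML1 had at most 5 reads in any library and were too low to be tested. Of the 5 neuron markers, STMN2 had 0 reads in every library and SNAP25 at most 4. The 0 h replicate 2 library stood apart in the gap between transcript length and effective length in the deposited tables, at 199 nt against 210 to 248 nt in the others, and results that rest on either 0 h library are given without it.

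Upstream sequences of 3 isotypes are shown: TUBB2A had the largest change of the 10, TUBB4B was among the earliest to rise, and TUBB1 rose only late. They are RefSeq sequences of GRCh38.p14, read 5′ to 3′ on the gene's strand, and they stop before the more upstream of the RefSeq start site and the start of the gene's main transcript in GENCODE 29. Capitals mark letters of 7 motifs searched on both strands in the 250 bases before the RefSeq start: CCAAT (bound by NF-Y), TATAAA (the TATA box), TGANTCA (the core of AP-1), the longer NF-E2 site that contains it, AGATAA (the site of GATA1 and its relatives), CCGGAAG (ETS factors) and GCGNGGGCG (EGR factors). The printed stretches are TUBB2A at chr6:3157545-3157794 on the minus strand (250 bases), TUBB4B at chr9:137241037-137241212 on the plus strand (176 bases) and TUBB1 at chr20:59019179-59019253 on the plus strand (75 bases).
TUBB2A: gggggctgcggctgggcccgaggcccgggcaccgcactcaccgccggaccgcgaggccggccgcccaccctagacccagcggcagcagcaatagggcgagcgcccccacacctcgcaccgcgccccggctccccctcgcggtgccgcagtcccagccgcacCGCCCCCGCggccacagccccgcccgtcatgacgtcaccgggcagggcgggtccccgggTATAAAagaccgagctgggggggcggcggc
TUBB4B: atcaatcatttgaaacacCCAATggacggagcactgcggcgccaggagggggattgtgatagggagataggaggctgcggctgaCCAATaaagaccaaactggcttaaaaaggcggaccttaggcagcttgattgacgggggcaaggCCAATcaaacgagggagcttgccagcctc
TUBB1: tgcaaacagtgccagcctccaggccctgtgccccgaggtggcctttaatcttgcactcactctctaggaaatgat

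All 10 genes had a RefSeq window. TUBB4B held 3 CCAAT letters, at 232, 166 and 103 bases before its start, TUBA1A held 2, and TUBA1C and TUBB 1 each. CCAAT occurs in 32.0% of the 35116 windows of the same length. TUBB2A held an EGR match, CGCCCCCGC on the printed strand, 89 bases before its start, and a TATA box at 30 bases. These letters occur in 8.41 and 10.7% of windows. TUBB3 held TGAGTCA, a match to the AP-1 core found in 6.57% of windows, 21 bases before the RefSeq start, but its main transcript starts 1354 bases away from that site. None of the 7 motifs matched in the windows of TUBB1, TUBA1B, TUBA4A or TUBB6. A match or its absence describes these letters and was not tested as a binding site.

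Before PMA, 4 of the 10 genes supplied most tubulin mRNA. At 0 h the level per length was 1475 and 1630 TPM for TUBA1B in the 2 libraries, 619 and 716 TPM for TUBA1C, 558 and 522 TPM for TUBB, and 213 and 248 TPM for TUBB4B. The next genes in order were TUBB6 (51.3 and 62.8 TPM), TUBB2A (39.7 and 48.1 TPM), TUBA4A (31.8 and 35.6 TPM), TUBA1A (18.1 and 19.3 TPM) and TUBB3 (9.80 and 10.3 TPM). TUBB1 was lowest at 1.14 and 1.03 TPM, from 80 and 75 reads. The ranges of the 2 libraries overlapped for no neighbouring pair in this order. The place of TUBB depends on an unmatched transcript described below. With that transcript counted, TUBB had 1191 and 1290 TPM at 0 h, above TUBA1C.

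Levels differed among the 8 time points for 9 of the 10 genes by edgeR's test of any difference, a share near the 82.9% of all tested genes. The exception was TUBB (adjusted p 0.0600). At 0.5 h none was called (0.171% of all genes were, 0.165% higher and 0.0057% lower), and none had an unadjusted p under 0.05, where 3907 of all genes did. At 1.5 h 3 were higher and none lower, where 17.1% of all genes were called, 9.05% higher and 8.05% lower. At 3 h 6 were higher and 1 lower (42.0% of all genes were called, 21.5 and 20.5%), and at 6 h 7 were higher and 2 lower (57.2% of all genes, 27.8 and 29.4%). The counts were 6 higher and 1 lower at 24 h (58.3% of all genes, 31.7 and 26.6%), 7 higher and none lower at 48 h (54.3% of all genes, 30.2 and 24.1%), and 7 higher and 2 lower at 72 h (58.6% of all genes, 31.7 and 26.9%). The median log2 fold change of the 10 genes was 0.08 at 1.5 h, 0.74 after 3 h, 1.51 at 6 h, 0.54 after 24 h, 1.09 at 48 h and 1.05 by 72 h, while that of all genes lay between −0.03 and 0.00. All 42 called values had the same sign within the replicate 1 libraries and within the replicate 2 libraries. In all 42 the libraries of the time point did not overlap those of 0 h, which by itself fixes that sign. The shared sign is therefore no further support. Neither is the lack of overlap, which was also seen for values that were not called, such as TUBB at 6 h and TUBA1B at 24 h.

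**Figure D1:**
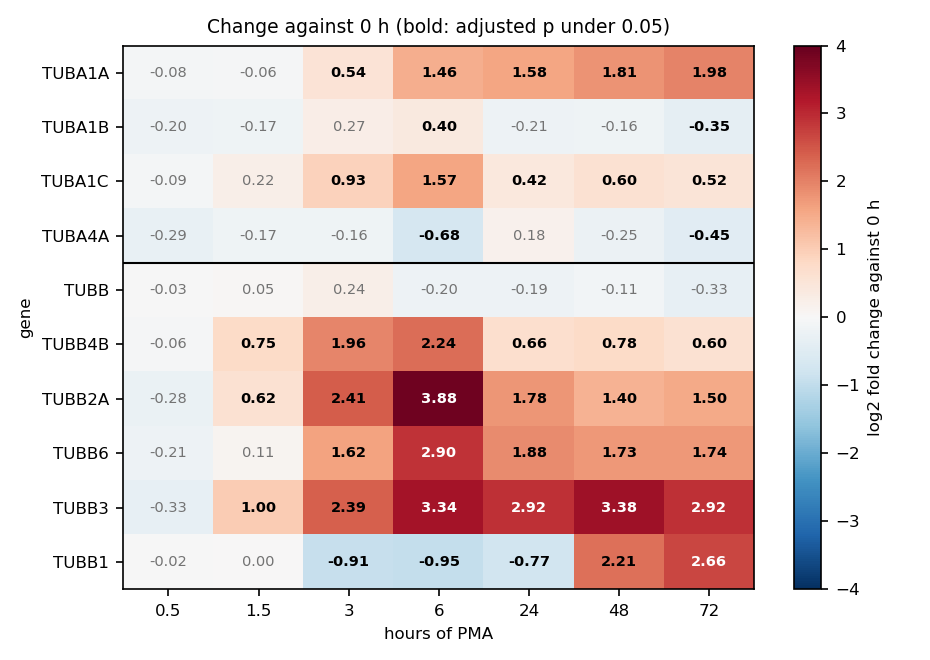
Log2 fold change of each tubulin gene (rows, alpha above the line and beta below) against 0 h at 7 times of PMA (columns), with colour from lower (blue) to higher (red) and called values in bold. Of the 70 values 42 were called; TUBB2A at 6 h is the largest at 3.88, TUBB has no called value, and TUBB1 is the only gene that goes from called lower to called higher.

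Scaling mattered for the small changes. When libraries were scaled to total counts, the median of all genes moved to −0.28 after 3 h, −0.35 at 6 h, −0.26 after 24 h, −0.18 at 48 h and −0.19 by 72 h, and the share of calls that were higher fell at 6 h from 48.6 to 30.3%. The shares fell from 51.2 to 27.4% at 3 h, from 54.4 to 38.7% at 24 h, from 55.7 to 44.3% at 48 h and from 54 to 44.5% at 72 h. At 1.5 h the median moved to −0.12 and the share from 52.9 to 31.9%. Changes below are relative to the default scaling, in which that median is near 0.

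The beta genes TUBB2A, TUBB6 and TUBB4B, like TUBA1C among the alpha genes, made a pulse: they were highest at 6 h and then dropped to a level above the starting one. TUBB2A (chromosome 6, 3153669 to 3157526, minus strand) read 35.7 and 48.0 CPM at 0 h, 36.5 and 32.5 after 0.5 h, 67.0 and 61.9 at 1.5 h, 268 and 176 after 3 h, 638 and 593 at 6 h, 141 and 146 after 24 h, 111 and 109 at 48 h, and 114 and 122 by 72 h. Both libraries of every time point from 1.5 h onwards lay above both 0 h libraries, and the 6 h pair lay above all others. Its log2 fold change against 0 h was 0.62 at 1.5 h (SE 0.17, edgeR adjusted p 0.0239), 2.41 at 3 h (SE 0.18, adjusted p 1.32e-07) and 3.88 at 6 h (SE 0.19, adjusted p 7.30e-10), a 14.7-fold higher mean. From 6 to 24 h it fell by 2.1 (SE 0.17, adjusted p 2.90e-07), and at 72 h it was still 2.82-fold above 0 h (log2 1.50, SE 0.17, adjusted p 4.61e-06). The 1.5 h call was lost without 0 h replicate 1 (0.43, adjusted p 0.109), without 1.5 h replicate 1 (0.57, adjusted p 0.129) and without 1.5 h replicate 2 (0.68, adjusted p 0.0809), and the later calls were not.

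TUBB2A is also the isotype whose reads are hardest to assign. Of the 31-base stretches of its transcripts 36.5% occur in no other gene, the lowest share of the 10, and 57.8% are shared with its neighbour TUBB2B. TUBB2B itself had 10.9 CPM at 0 h, 39.6 at 6 h and 7.55 at 72 h, and rose at 6 h (log2 1.86, SE 0.24, adjusted p 1.40e-05). With the reads of both genes summed, an alternative chosen after seeing the data, the value was 0.52 at 1.5 h, no longer called (adjusted p 0.0560), 2.2 at 3 h, 3.64 at 6 h and 1.25 at 72 h.

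TUBB6 (chromosome 18, 12307669 to 12344320, plus strand) read 45.9 and 53.2 CPM at 0 h, 170 and 134 after 3 h, 368 and 370 at 6 h, 175 and 191 after 24 h, 160 and 168 at 48 h, and 161 and 169 by 72 h. No library from 3 h on reached down to the 0 h range. Its log2 fold change was 1.62 at 3 h (SE 0.11, adjusted p 9.02e-08), 2.90 at 6 h (SE 0.12, adjusted p 1.48e-10) and 1.74 at 72 h (SE 0.11, adjusted p 1.56e-08). The fall from 6 to 24 h was of 2.02-fold, and the 3, 24, 48 and 72 h levels were next to each other in the order of levels with no call between neighbours.

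TUBB4B (chromosome 9, 137241213 to 137243707, plus strand), whose upstream window holds the 3 CCAAT letters, had the highest TPM of the 3 pulsed beta genes. Its CPM were 190 and 244 at 0 h, 207 and 209 after 0.5 h, 364 and 368 at 1.5 h, 916 and 769 after 3 h, 971 and 1082 at 6 h, 313 and 373 after 24 h, 352 and 393 at 48 h, and 299 and 356 by 72 h. The rise was already called at 1.5 h (log2 0.75, SE 0.14, adjusted p 0.00310) and was 2.24 at 6 h (SE 0.15, adjusted p 1.42e-08). The step from 3 to 6 h was 0.29 (SE 0.14, adjusted p 0.121), beside those of TUBB2A (1.47, SE 0.17) and TUBB6 (1.28, SE 0.11). At 72 h TUBB4B was 1.51-fold above 0 h (log2 0.60, SE 0.14, adjusted p 0.00224).

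TUBB3 (chromosome 16, 89921392 to 89938761, plus strand) rose early and stayed high. It read 8.26 and 10.4 CPM at 0 h, 7.47 and 7.37 after 0.5 h, 21.2 and 16.2 at 1.5 h, 55.9 and 41.8 after 3 h, 93.5 and 95.8 at 6 h, 67.0 and 74.6 after 24 h, 95.5 and 99.1 at 48 h, and 64.6 and 76.7 by 72 h. Every library from 1.5 h onwards lay above the 0 h range. Its log2 fold change was 1.00 at 1.5 h (SE 0.17, adjusted p 0.00149), 3.34 at 6 h (SE 0.17, adjusted p 1.44e-09), 3.38 at 48 h (SE 0.17, adjusted p 1.22e-09) and 2.92 at 72 h (SE 0.17, adjusted p 4.57e-09). From 6 to 24 h it fell by 0.42 (SE 0.15, adjusted p 0.0309), against a fall of 2.1 for TUBB2A. That step was not called with libraries scaled to total counts (−0.30, adjusted p 0.0953), without 24 h replicate 1 (−0.34, adjusted p 0.166) or without either 6 h library (−0.45 and −0.41, adjusted p 0.0710 and 0.0959).

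Marker genes of several other cell types were read beside TUBB3. The summed level of 5 neuron markers went from 7.66 to 8.64 TPM at 0 h to 34.4 to 35.0 TPM at 6 h and 92.0 to 104 TPM at 72 h, and at 72 h nearly all of it was SYP, a vesicle membrane protein, which rose from 5.31 TPM at 0 h to 95.6 TPM at 72 h (log2 4.18, SE 0.16, adjusted p 8.04e-11). STMN2 had 0 reads throughout and SNAP25 at most 4. ELAVL3, with at most 28 reads in a library, was called higher at 6 h (log2 4.18, SE 1.25, adjusted p 0.00810) but not at 72 h, and RBFOX3 was called at neither time. The summed level of 5 stromal and endothelial markers went from 20 to 20.3 TPM at 0 h to between 92.2 and 124 TPM by 72 h. At 72 h 4 of the 5 were higher and none lower, against 31.7% of all genes higher and 26.9% lower. COL1A1 was called higher from 24 h on (log2 4.98 at 24 h, SE 0.13, adjusted p 1.34e-12). The sum of 5 lymphocyte markers, mostly CD3D, went from between 24.3 and 36.1 TPM to between 60.3 and 75.5 TPM. That of 5 monocyte markers went from between 80.4 and 89.9 TPM to between 62.4 and 71.5 TPM. Most of it was LYZ, with a mean of 83.9 TPM at 0 h and 56.4 TPM at 72 h. At 72 h 2 of the 5 monocyte markers were called higher and 1 lower, beside the same shares of all genes. The part of these genes in the result was not tested. TUBB3 shares 35.3% of its 31-base stretches with ENSG00000198211, a gene on the same strand that runs through the TUBB3 locus. That gene was given at most 0.562 CPM on average at any time, and with its reads added the 6 h value was 3.31. The program that made the counts divided the shared reads, so these values cannot show which gene they came from.

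TUBB (chromosome 6, 30720201 to 30725426, plus strand), the main beta isotype of untreated cells, had no called change against 0 h in the reported fit. With the replicate number as a block it was called lower at 72 h (−0.34, adjusted p 0.012). It read 838 and 861 CPM at 0 h, 830 and 836 after 0.5 h, 808 and 951 at 1.5 h, 976 and 1031 after 3 h, 668 and 811 at 6 h, 668 and 822 after 24 h, 718 and 855 at 48 h, and 587 and 766 by 72 h. Replicate 2 was the higher library at each of the 8 time points. Its log2 differences from 0 h were 0.24 at 3 h (SE 0.15, adjusted p 0.222), −0.20 at 6 h (SE 0.15, adjusted p 0.279) and −0.33 at 72 h (SE 0.15, adjusted p 0.0755). The step from 3 to 6 h was called (−0.44, SE 0.15, adjusted p 0.0300). It was not called without 3 h replicate 1 (−0.48, adjusted p 0.0630), without 3 h replicate 2 (−0.40, adjusted p 0.108) or without 6 h replicate 1 (−0.29, adjusted p 0.285).

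The value of TUBB depends on which transcripts are counted. The deposited tables list 1 transcript of the gene, of 2515 nt. They also list a transcript that did not match the annotation and whose length, 2670 nt, equals that of the annotated TUBB model. Its identity is not given in the sources used here. It held 33084 and 42009 reads at 0 h and 17775 and 18369 at 6 h, comparable to the 27300 and 26743 and the 15638 and 22920 reads of TUBB. With its reads added, an alternative chosen after seeing the data, TUBB was lower than at 0 h by 0.49 at 6 h (adjusted p 0.00187), 0.52 at 24 h (adjusted p 0.00137), 0.31 at 48 h (adjusted p 0.0313) and 0.53 at 72 h (adjusted p 0.00119). With libraries scaled to total counts it was called lower without those reads, at −0.57 at 6 h (adjusted p 0.00446), −0.44 at 24 h (adjusted p 0.0206) and −0.48 at 72 h (adjusted p 0.0129).

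TUBB1 (chromosome 20, 59019254 to 59026654, plus strand), the platelet isotype, followed a course of its own: it first fell and then rose. Its reads numbered 80 and 75 at 0 h, 87 and 87 after 0.5 h, 81 and 88 at 1.5 h, 41 and 45 after 3 h, 28 and 37 at 6 h, 48 and 64 after 24 h, 364 and 409 at 48 h, and 578 and 471 by 72 h. The 6 libraries of 3 to 24 h lay between 1.12 and 1.55 CPM, below the 6 libraries of 0 to 1.5 h at 2.27 to 2.62 CPM. The libraries of 48 h (11.1 and 11.4 CPM) and 72 h (16.1 and 14.7 CPM) lay above all others. Against 0 h it fell by 0.91 at 3 h (SE 0.18, adjusted p 0.00115), by 0.95 at 6 h (SE 0.19, adjusted p 0.000619) and by 0.77 at 24 h (SE 0.18, adjusted p 0.00232), then rose by 2.21 at 48 h (SE 0.17, adjusted p 7.98e-08) and by 2.66 at 72 h (SE 0.17, adjusted p 1.14e-08), which is 6.32-fold. These 5 calls held under each alternative computed for them, the leaving out of single libraries included.

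The rise fell between 24 and 48 h, a step of 2.97 (SE 0.17, adjusted p 1.86e-07) or 7.85-fold. In the reported fit TUBB1 was the only tubulin of the 10 called at that step, but other settings called 2 to 5, and TUBB3 (0.46, SE 0.15, adjusted p 0.0585) was called in 12 of 27 settings. At that step 15.0% of all genes were called, 8.88% higher and 6.12% lower. From 48 to 72 h TUBB1 differed by 0.45 (SE 0.15, adjusted p 0.215). None of the 10 was called there by edgeR or by DESeq2, against 1.47% of all genes (1.14% higher and 0.325% lower). An unadjusted p under 0.05 was found for 2 of the 10, TUBB1 and TUBB3, and for 2098 of all 17559 tested genes. At its highest TUBB1 was still a small part of the pool, at 7.44 and 6.83 TPM at 72 h, where TUBB2A had 125 and 134 TPM and TUBB4B 335 and 403 TPM.

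A pair of features bears on how TUBB1 was read. The end of the gene overlaps ATP5F1E, a subunit gene of the mitochondrial ATP synthase on the opposite strand, which holds 33.4% of the 31-base stretches of TUBB1; whether the counting used strand is not given in the sources used here. ATP5F1E had 139 CPM at 0 h and 147 CPM by 72 h (log2 0.09, SE 0.10, adjusted p 0.458) and was called only at 6 h, where it was higher (0.35, SE 0.10, adjusted p 0.00752). It was not called at 3, 24, 48 or 72 h, where TUBB1 was. Megakaryocyte markers did not move as one. Of 6 tested, 4 were higher and 1 lower at 24 and 48 h, and 4 were higher and none lower at 72 h. All genes gave 31.7% higher calls against 26.6% lower calls for 24 h. The same pair was 30.2% against 24.1% for 48 h, then 31.7% against 26.9% for 72 h. PPBP and VWF, both among the 4, rested on few reads, at most 23 for PPBP and 81 for VWF in any library. Their 72 h means were 0.477 CPM for PPBP and 1.87 CPM for VWF. The summed level of the 12 genes was 46.8 to 79.8 TPM at 0 h, 91.1 to 95.3 TPM at 6 h, 812 to 913 TPM at 24 h, 1486 to 1606 TPM at 48 h and 1758 to 1773 TPM at 72 h, with THBS1 and ITGB3 as the bulk of the later sums. ITGA2B, the partner of ITGB3 in the platelet fibrinogen receptor, fell from 57.7 CPM at 0 h to 13.1 CPM at 24 h (log2 −2.14, SE 0.11, adjusted p 1.96e-09) and was not called at 72 h (0.10, SE 0.11, adjusted p 0.432). GP1BB was not called at 6, 24, 48 or 72 h. The part of these markers in the course of TUBB1 was not tested. In bulk RNA, more cells with TUBB1 and more TUBB1 RNA per cell cannot be told apart.

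**Figure D2:**
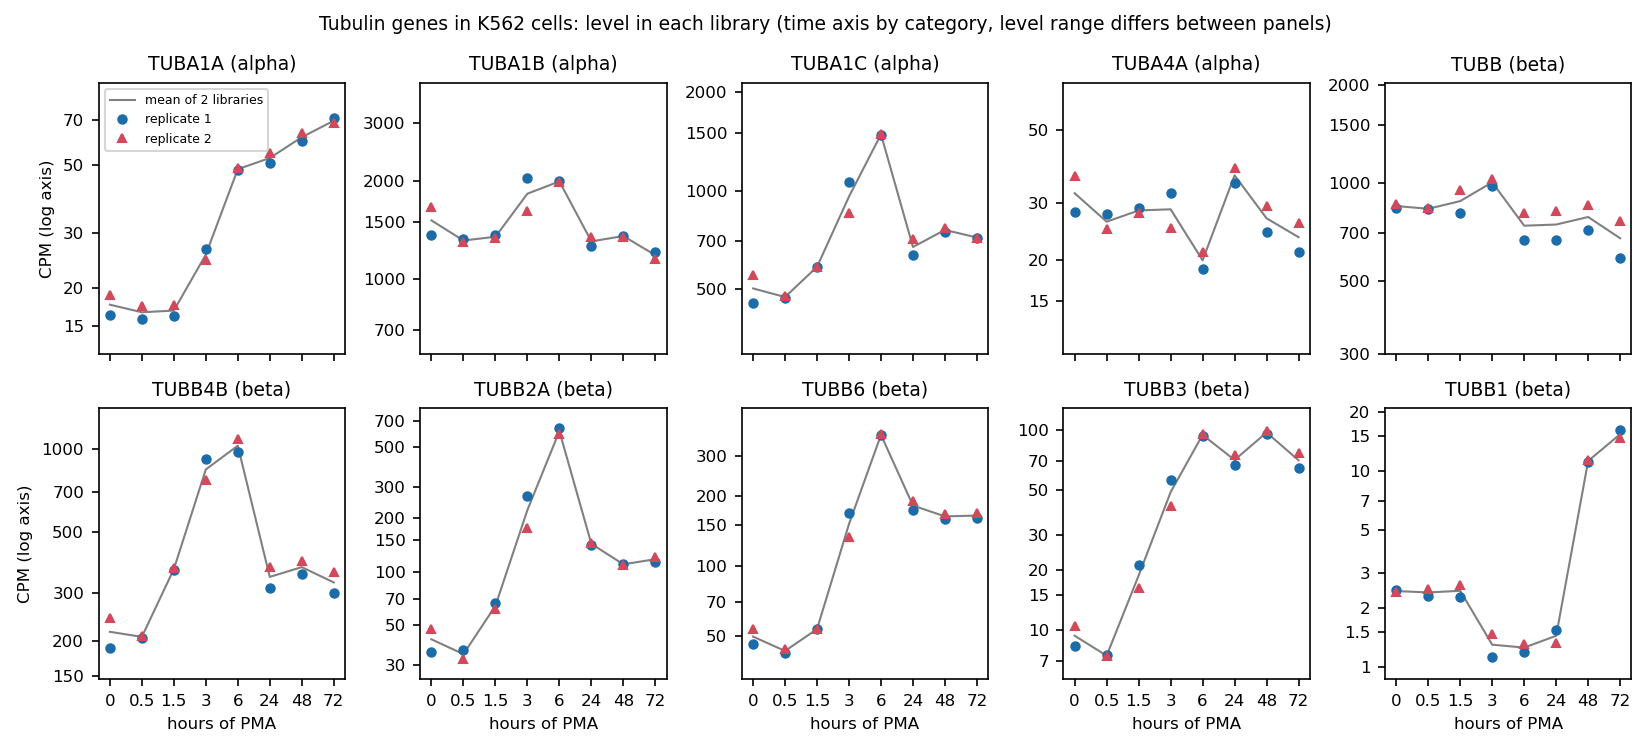
CPM of the 10 tubulin genes in each library (log axis, range set per panel) over the hours of PMA, with replicate 1 as circles, replicate 2 as triangles and the mean as a line. TUBB2A, TUBB4B, TUBB6 and TUBA1C peak at 6 h, TUBA1A and TUBB3 stay high to 72 h, and TUBB1 falls to between 1.12 and 1.55 CPM from 3 to 24 h before it reaches 16.1 and 14.7 CPM at 72 h.

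The 11 transcription factors linked to TUBB1 or to megakaryocyte genes were read beside it. NFE2, the haematopoietic subunit of NF-E2, on which TUBB1 expression in megakaryocytes depends, fell from 89.0 to 1.86 CPM at 6 h (log2 −5.57, SE 0.18, adjusted p 1.84e-11) and was at 53.2 CPM at 72 h, still lower than at 0 h (−0.74, SE 0.13, adjusted p 0.000302). GATA1, the erythroid and megakaryocytic GATA factor, fell from 131 to 9.64 CPM at 6 h (−3.76, SE 0.18, adjusted p 7.11e-10) and was at 133 CPM at 72 h (0.02, SE 0.15, adjusted p 0.923). GFI1B, a repressor of the same lineages, fell by 2.06 at 6 h and was higher at 72 h (0.80, SE 0.15, adjusted p 0.000372). So at 6 h NFE2, GATA1, GFI1B and TUBB1 were all lower than at 0 h, while 3 of the 11 factors were higher. At 72 h TUBB1 was above its 0 h level and NFE2 below its own, although both had higher means at 72 h than at 6 h. At 1.5 h NFE2 (−0.93), GATA1 (−0.58) and GFI1B (−0.57) were already called lower, and TUBB1 was not called. At 24 h TUBB1 was called lower. GFI1B then averaged 39.8 CPM against 23.4 CPM at 0 h, and NFE2 and GATA1 had lower means than at 0 h.

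FLI1, an ETS factor of megakaryocytes, averaged at most 0.109 CPM up to 24 h and had 0.637 CPM at 48 h and 4.48 CPM at 72 h (log2 5.51, SE 0.49, adjusted p 3.64e-07). GATA2 rose at 3 h (2.38, SE 0.16, adjusted p 7.45e-08) and was still higher at 72 h (1.25, SE 0.16, adjusted p 1.23e-05). The NF-E2 partners differed: MAFF and MAFK were higher at 72 h (1.51 and 1.16), and MAFG was lower (−0.61, SE 0.14, adjusted p 0.00194). ZFPM1, the GATA1 cofactor, and TAL1 were higher at 72 h (0.87 and 0.35), and RUNX1 was lower (−0.61, SE 0.08, adjusted p 1.81e-05). In all, 3 of the 11 were higher and 5 lower at 6 h, and 7 were higher and 3 lower at 72 h, where 27.8% of all genes were higher and 29.4% lower at 6 h, and 31.7 and 26.9% at 72 h.

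**Figure D3:**
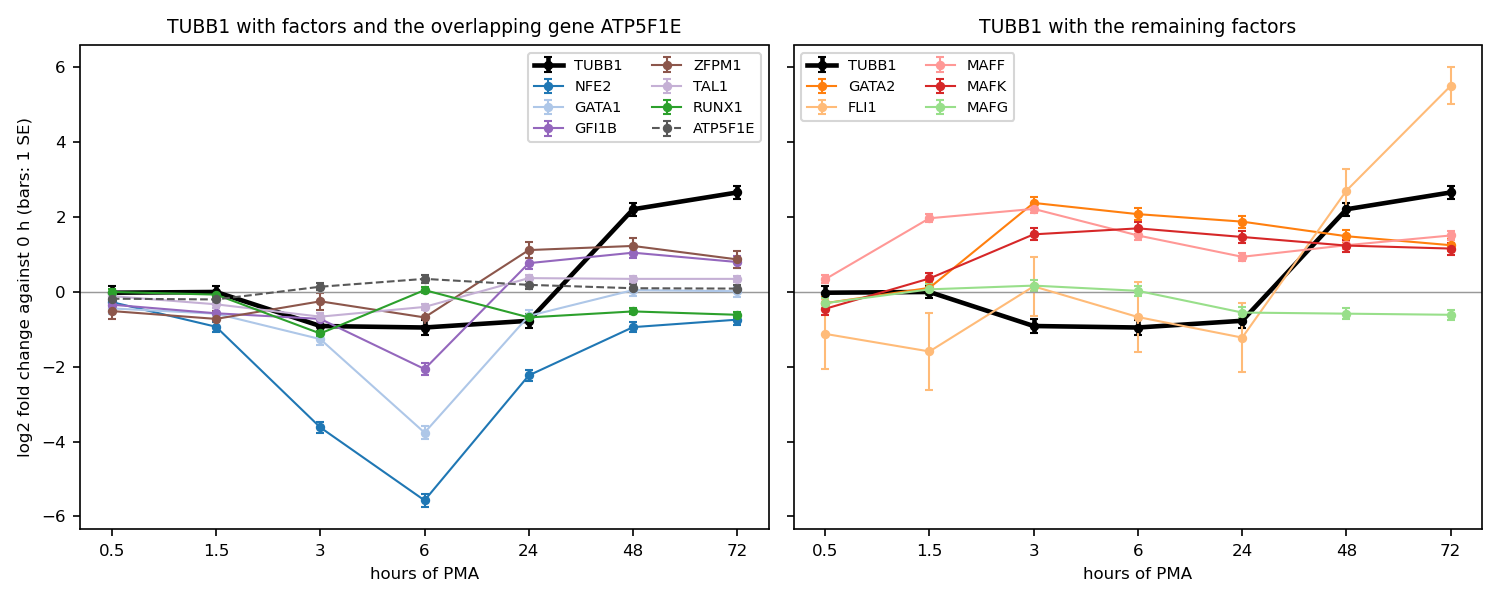
Log2 fold change against 0 h (bars, 1 SE) of TUBB1 (thick black line) beside 11 transcription factors and the overlapping gene ATP5F1E (dashed) over the hours of PMA. TUBB1 and NFE2 are both low at 6 h (−0.95 and −5.57), and at 72 h TUBB1 stands at 2.66, FLI1 at 5.51, NFE2 at −0.74 and ATP5F1E at 0.09.

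Among the alpha isotypes, TUBA1A rose without a pulse. TUBA1A (chromosome 12, 49184796 to 49189324, minus strand) read 16.3 and 18.9 CPM at 0 h, 26.7 and 24.5 after 3 h, 48.0 and 48.9 at 6 h, 50.7 and 54.7 after 24 h, 59.7 and 63.4 at 48 h, and 71.0 and 68.2 by 72 h. Its log2 fold change was 0.54 at 3 h (SE 0.10, adjusted p 0.000606), 1.46 at 6 h (SE 0.10, adjusted p 2.50e-08) and 1.98 at 72 h (SE 0.10, adjusted p 1.11e-09). The neighbouring levels of 6, 24, 48 and 72 h were not called different from each other, but 72 h was above 6 h (0.52, SE 0.10, adjusted p 0.000380). TUBA1A shares 33.3% of its 31-base stretches with TUBA1C and 23.8% with TUBA1B, both far more abundant, so reads could be divided wrongly among them.

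TUBA1C (chromosome 12, 49188736 to 49274603, plus strand) was highest at 6 h. It read 453 and 551 CPM at 0 h, 1062 and 855 after 3 h, 1483 and 1491 at 6 h, 634 and 709 after 24 h, and 718 and 718 by 72 h. The log2 fold change was 1.57 at 6 h (SE 0.12, adjusted p 6.95e-08) and 0.52 at 72 h (SE 0.12, adjusted p 0.00165). At 24 h it was 0.42 (SE 0.12, adjusted p 0.00687), a call that was lost with libraries scaled to total counts (0.17, adjusted p 0.102), without 0 h replicate 1 (0.29, adjusted p 0.0684) and without 24 h replicate 2 (0.31, adjusted p 0.0870).

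TUBA1B (chromosome 12, 49127782 to 49131397, minus strand), the gene with the highest TPM of the 10 in every library, changed little. It read 1364 and 1662 CPM at 0 h, 2000.0 and 1983 at 6 h, and 1214 and 1153 by 72 h. It was higher at 6 h (log2 0.40, SE 0.12, adjusted p 0.0110) and lower at 72 h (−0.35, SE 0.12, adjusted p 0.0203). Scaled to total counts, the 6 h value was 0.03 (adjusted p 0.778), and without 0 h replicate 1 it was 0.26 (adjusted p 0.113). The 72 h value was −0.21 without 0 h replicate 2 (adjusted p 0.202) and −0.31 without 72 h replicate 2 (adjusted p 0.0870), and it was called in 21 of 27 settings.

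TUBA4A (chromosome 2, 219249711 to 219278170, minus strand), the other isotype known from platelets, was called higher than at 0 h at no time. It read 28 and 36.1 CPM at 0 h, 18.7 and 21.2 at 6 h, 34.3 and 38.4 after 24 h, 24.4 and 29.3 at 48 h, and 21.1 and 25.9 by 72 h. It fell by 0.68 at 6 h (SE 0.16, adjusted p 0.00231), was not called at 24 h (0.18, SE 0.16, adjusted p 0.327), and was lower at 72 h (−0.45, SE 0.16, adjusted p 0.0263). The 72 h call was lost without 0 h replicate 2 (−0.25, adjusted p 0.246) and without 72 h replicate 1 (−0.31, adjusted p 0.196), and with counts derived from TPM it was −0.15 (adjusted p 0.536).

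The steps between neighbouring times show when the family moved together. From 0.5 to 1.5 h TUBB2A, TUBB3 and TUBB4B rose and none fell, against 5.77% of all genes called, 4.11% higher and 1.67% lower. The step of TUBB2A was 0.90 (adjusted p 0.00532) and was not called without 0.5 h replicate 2 (0.82, adjusted p 0.0847) or without 1.5 h replicate 1 (0.84, adjusted p 0.0642). From 1.5 to 3 h 7 rose and 1, TUBB1, fell (25.1% of all genes, 13.0 and 12.1%). Among the 7, TUBA1B (0.44, adjusted p 0.0146) was not called without 1.5 h replicate 1 (0.45, adjusted p 0.0677), 1.5 h replicate 2 (0.42, adjusted p 0.0945) or 3 h replicate 1 (0.26, adjusted p 0.157), nor with total counts (0.24, adjusted p 0.0588). From 3 to 6 h 5 rose, TUBA1A, TUBA1C, TUBB2A, TUBB3 and TUBB6, while TUBA4A and TUBB fell (41.2% of all genes, 19.0 and 22.1%). The fall of TUBA4A (−0.52, adjusted p 0.0187) was not called without 3 h replicate 1 (−0.32, adjusted p 0.199) or 6 h replicate 1 (−0.41, adjusted p 0.144). From 6 to 24 h the direction turned: 6 fell and only TUBA4A rose (56.6% of all genes, 25.8 and 30.8%). Between 24 and 72 h TUBB1 and TUBA1A rose and TUBA4A fell (26.3% of all genes, 13.9 and 12.4%). Between 6 and 72 h 2 rose, TUBB1 and TUBA1A, and 6 fell (57.2% of all genes, 31.6 and 25.6%).

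The isotypes were also summed within each class. The 6 beta genes added up to 872 and 892 TPM at 0 h, 2211 and 2095 TPM at 6 h and 1084 and 1302 TPM at 72 h. Counting in the unmatched transcript of the annotated TUBB length gave beta sums of 1506 and 1660 TPM at 0 h. These sums were 2590 and 2385 TPM at 6 h and 1616 and 1678 TPM at 72 h. The rise at 6 h was smaller with that transcript, and the ranges of 72 h and 0 h overlapped. The 4 alpha genes averaged 2273 TPM at 0 h, 3315 TPM at 6 h and 2384 TPM at 72 h. The makeup of the beta pool, here without the unmatched transcript, was recast at 6 h. TUBB held 63.9 and 58.5% of it at 0 h, only 16.1 and 18.4% after 6 h and 35.7 and 39.0% by 72 h. TUBB4B held 24.4 and 27.8% at 0 h and 39.8 and 41.9% after 6 h, and TUBB2A 4.55 and 5.40% at 0 h and 25.7 and 22.6% at 6 h. At 6 h TUBB4B held the largest share in both libraries. TUBB2A was next by TPM, but TUBB was next by reads not divided by length (24.4 and 27.5% against 23.3 and 20.1%).

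At 72 h the pool had not returned to its starting makeup. TUBB6 held 14.9 and 13.0% against 5.88 and 7.04% at 0 h, TUBB3 6.31 and 6.26% against 1.12 and 1.15%, and TUBB1 0.686 and 0.524% against 0.131 and 0.115%. For each of these the 2 libraries of 72 h lay above the 2 of 0 h. Counting the unmatched 2670 nt transcript with TUBB raised its share to 79.1 and 77.7% at 0 h, 28.4 and 28.3% after 6 h and 56.9 and 52.7% by 72 h, and at 6 h TUBB4B still led with 33.9 and 36.8%, with TUBB next and TUBB2A after it at 22.0 and 19.9%. In the alpha pool TUBA1C went from 28.9 and 29.8% at 0 h to 47.4 and 46.7% at 6 h and 39.0 and 39.5% by 72 h, and TUBA1B from 68.8 and 67.9% to 50.9 and 51.5% and 56.7 and 56.0%. TUBA1A reached 3.21 and 3.00% at 72 h from 0.842 and 0.805% at 0 h.

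**Figure D4:**
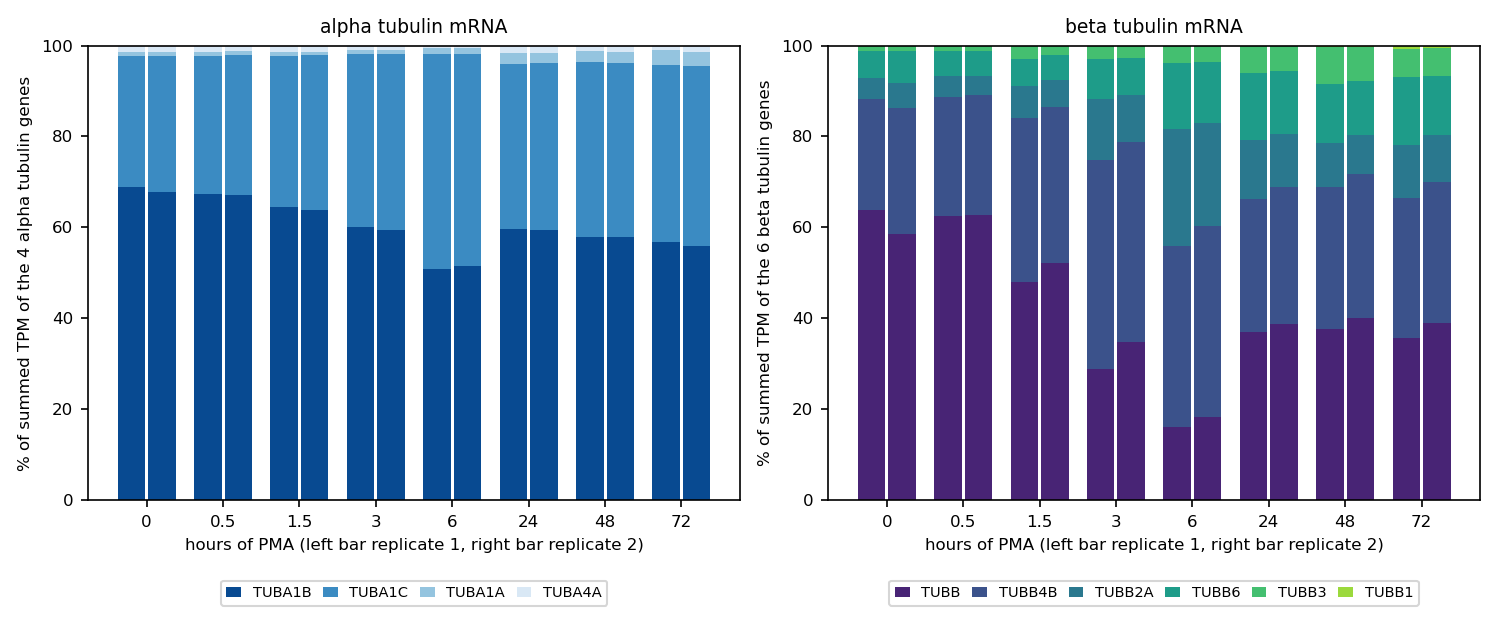
Share of each isotype in the summed TPM of the 4 alpha genes (left panel) and the 6 beta genes (right panel) for every library, in pairs of bars per time of PMA (replicate 1 left, replicate 2 right). The share of TUBB shrinks to 16.1 and 18.4% at 6 h while TUBB4B and TUBB2A widen, and TUBB1 reaches only 0.686 and 0.524% at 72 h.

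Within the genes, most reads sat on 1 main transcript. TUBB and TUBB1 have a single transcript in the deposited tables. The main transcript held on average 97.4% of the TPM of TUBB4B, 95.8% of TUBB2A, 93.7% of TUBA1B, 73.7% of TUBB3, 73.2% of TUBA1A, 62.1% of TUBB6, 59.9% of TUBA4A and 56.9% of TUBA1C. In TUBB3 and TUBB6 other transcripts took their largest share at 1.5 h. TUBB3-201 held 78.4% of TUBB3 at 0 h, 38.2% at 1.5 h and 84.4% at 6 h, and TUBB6-206, a short model with a retained intron, held 24.3% of TUBB6 at 0 h, 30.2% at 1.5 h and 9.35% at 72 h. These shares were not tested, and the program that made the counts divides reads between transcripts that overlap.

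Of 10 further tubulin genes 7 were tested. At 6 h 1 was higher and 4 were lower, against 27.8% of all genes higher and 29.4% lower. TUBB2B was the one that rose, and TUBE1, the epsilon tubulin of centrioles, fell most (log2 −2.74, SE 0.19, adjusted p 2.81e-08). At 72 h 2 were higher and 3 lower, against 31.7% of all genes higher and 26.9% lower. TUBAL3 had the largest rise (1.75, SE 0.16, adjusted p 6.08e-07) and TUBE1 again the largest fall (−1.95, SE 0.18, adjusted p 4.80e-07). Of the 12 genes of the gamma-tubulin ring complex, which nucleates microtubules, none was higher and 8 were lower at each of these times, against 29.4% of all genes lower at 6 h and 26.9% at 72 h. TUBG1, the gamma tubulin itself, fell by 1.26 at 6 h (SE 0.16, adjusted p 1.34e-05) and was not called at 72 h (−0.21, SE 0.16, adjusted p 0.277), when MZT2A fell most (−1.71, SE 0.17, adjusted p 1.34e-06). MZT2B, the most abundant of the list by TPM, fell by 1.04 at 6 h and by 1.49 at 72 h. The list's median was −0.74 at 6 h and −0.62 at 72 h.

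Genes that fold tubulin, which include the CCT chaperonin, prefoldin and the tubulin cofactors, were read next. Of 21, 9 were higher and 1 lower after 3 h, 7 and 4 at 6 h, and 1 and 10 by 72 h. The shares of all genes called were 42.0% at 3 h, 57.2% at 6 h and 58.6% at 72 h, and the number of folding genes called was near them. PFDN4, a prefoldin subunit, had the largest rise at 3 h (0.95, SE 0.26, adjusted p 0.00917) and at 6 h (0.75, SE 0.26, adjusted p 0.0247), and TBCC the largest fall at 3 h (−0.42, SE 0.13, adjusted p 0.0176). TBCEL had the largest fall at 6 h (−1.27, SE 0.19, adjusted p 4.67e-05) and was the gene that was higher at 72 h (0.52, SE 0.17, adjusted p 0.0199). ARL2, which regulates the cofactors, had the largest fall at 72 h (−1.93, SE 0.18, adjusted p 5.61e-07). CCT5, the most abundant of the list by TPM, had 534 CPM at 0 h and 346 CPM by 72 h (−0.63, SE 0.10, adjusted p 8.46e-05). Of the 6 genes of tubulin mRNA autoregulation, none was higher and 3 were lower at 6 h, and none was higher and 4 were lower at 72 h. The number called was near the 57.2 and 58.6% of all genes called at these times. By direction, 27.8% of all genes were higher and 29.4% lower at 6 h, and 31.7 and 26.9% at 72 h. TTC5 fell from 19.6 to 7.38 CPM at 6 h (−1.41, SE 0.14, adjusted p 1.41e-06) and averaged 10.3 CPM at 72 h (−0.93, SE 0.14, adjusted p 5.96e-05). CNOT1, the scaffold of CCR4-NOT, was not called at 6 h (−0.05, SE 0.08, adjusted p 0.625) and was lower at 72 h (−0.56, SE 0.08, adjusted p 5.28e-05).

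Of 20 genes that modify tubulin, 3 were higher and 9 lower at 6 h, and 3 and 6 at 72 h, where 57.2 and 58.6% of all genes were called. By direction, 27.8% of all genes were higher and 29.4% lower at 6 h, and 31.7 and 26.9% at 72 h. VASH1, a carboxypeptidase that removes the last tyrosine of alpha tubulin, rose from 0.711 CPM at 0 h to 1.89 at 6 h and 38.7 by 72 h (log2 5.77, SE 0.19, adjusted p 1.35e-11). TPGS2, a glutamylase subunit and the most abundant of the list by TPM, fell by 0.23 at 6 h and by 0.43 at 72 h. TTLL1, a glutamylase, fell most at 6 h (−2.02, SE 0.35, adjusted p 0.000203). It rested on few reads, 6 to 52 in a library, and averaged 1.11 CPM at 0 h and 0.27 CPM at 6 h. ATAT1, the alpha tubulin acetyltransferase, was called lower at 72 h with 0 reads in both libraries. However, it averaged only 1.1 CPM at 0 h, had no reads at 3 h and averaged 0.576 CPM at 6 h, so no fold is given.

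Of 14 motor genes of proplatelet and organelle transport, 12 were higher at 6 h and 7 at 72 h, with none lower at either time, where 27.8% of all genes were higher and 29.4% lower at 6 h and 31.7 and 26.9% at 72 h. KIF1B led at 6 h (1.75, SE 0.09, adjusted p 1.17e-09) and KIF3B at 72 h (1.51, SE 0.09, adjusted p 9.13e-09). DYNLL1, a dynein light chain and the most abundant of the list by TPM, rose from 65.4 CPM to 157 CPM at 6 h and was at 157 CPM at 72 h. Of 22 tested genes for microtubule-associated and destabilising proteins, 11 were higher and 5 lower at 6 h, and 8 and 8 at 72 h, beside the same shares of all genes. MAPRE1, which tracks growing microtubule ends, rose by 1.66 at 6 h (SE 0.12, adjusted p 3.87e-08), while its relative MAPRE3 fell by 2.68 (SE 0.14, adjusted p 1.25e-09). At 72 h MAP2 had the largest rise but only 0.878 CPM, and STMN3 the largest fall (−1.89, SE 0.17, adjusted p 4.63e-07). STMN1, a destabiliser and the most abundant of the list by TPM, went from 451 CPM at 0 h to 182 CPM at 72 h (−1.30, SE 0.13, adjusted p 9.35e-07).

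**Figure D5:**
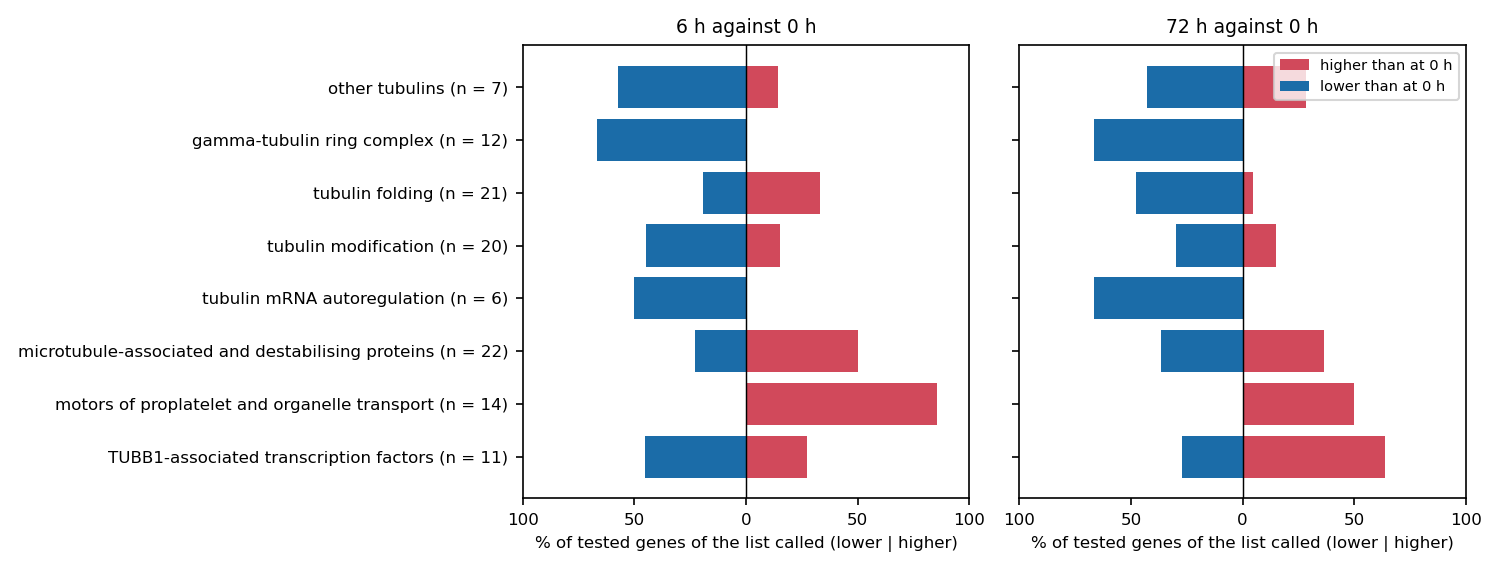
Share of the tested genes of 8 lists called higher (red, to the right) or lower (blue, to the left) than at 0 h, at 6 h (left panel) and 72 h (right panel). Motor genes have no lower call, 12 of 14 being higher at 6 h, and genes of the gamma-tubulin ring complex have no higher call, 8 of 12 being lower at both times.

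Patterns were compared as correlations of log2 CPM over the 16 libraries, which share the time course, so they are given as a description. Among the 10 genes TUBB2A was closest to TUBA1C (r = 0.977), TUBB6 (0.935) and TUBB4B (0.921), and TUBB3 was closest to TUBB6 (0.939) and TUBA1A (0.900). TUBB1 had its highest value with TUBA1A (0.477) and its lowest with TUBA1B (−0.620). Over 11260 genes averaging 5 CPM or more, the 5 most like TUBB1 were SIAE (r = 0.973), PTPRU (0.943), SCUBE3 (0.942), WWC1 (0.941) and RND1 (0.939). SIAE went from 17.3 CPM at 0 h to 13.8 at 6 h and 29.5 by 72 h, and WWC1 from 2.11 to 1.56 and 25.1 CPM. The 5 most like TUBB2A were RIC8A (0.992), PDPK1 (0.988), FGFRL1 (0.985), NOCT (0.985) and CTTN (0.984), of which FGFRL1 went from 34.5 CPM at 0 h to 237 at 6 h and 66.6 by 72 h.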

How the data were processed

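Total RNA of 16 libraries was sequenced by the authors after column extraction, DNase treatment and ribosomal RNA depletion. Each deposited table holds, per the file headers, an estimated count of reads and a TPM for 177456 Ensembl transcripts, with their lengths. The submitters' processing notes name Trim Galore 0.4.3 and Salmon, and hg19 and hg38; the Salmon version, its index and its strand setting are not given in the sources used here. The deposited estimated counts carry no normalization, and the deposited TPM values are scaled by the authors' program to 1000000 per library.

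Transcripts were matched by identifier without version to GENCODE 29 on GRCh38: 167027 (94.1%) matched, and the 10429 others held 3.01 to 3.75% of reads. Estimated counts were summed per gene and rounded. Genes were tested in edgeR 4.0.16 (R 4.3.3) with TMM factors, filterByExpr, 1 quasi-likelihood fit over 8 time points (8 residual degrees of freedom) and Benjamini-Hochberg adjustment over 17559 genes. DESeq2 1.42.0 was an alternative. Simulated counts with known changes were used to check the script. With 2 libraries against 2, an exact permutation test cannot go below p = 0.333, so single genes rest on the fit.

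The members and the gene lists were chosen with earlier results of these data known. From each list the text names, at 6 and 72 h the called gene with the largest rise, that with the largest fall and the gene with the highest mean TPM, and all 11 transcription factors; likeness was ranked for TUBB1 and for the gene with the largest change. Promoter windows are from RefSeq. A planned comparison of protein sequences is not reported here. The level of a listed marker gene is also not reported here. Replicate numbers were not taken as pairs, since only 14 of 28 correlations between same-numbered deviations were over 0.1 (range −0.118 to 0.211). The replicate sets do differ in length minus effective length, 210 to 221 nt in replicate 1 and 229 to 248 nt in 7 of 8 replicate 2 libraries, so the fit with the block is also given.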

Additional observations from a re-analysis of the deposited data

Results flagged for a closer look

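Differences in direction between time points were tested directly for 2 tubulins. TUBB1 was lower than at 0 h at 6 h (log2 −0.95) and higher at 72 h (2.66), and 72 h against 6 h differed by 3.61 (SE 0.18, edgeR adjusted p 2.27e-09), with both libraries of 72 h above both of 6 h. TUBA1B was higher than at 0 h at 6 h (0.40) and lower at 72 h (−0.35), and 72 h against 6 h differed by −0.75 (SE 0.12, edgeR adjusted p 0.000114). Both values share the 0 h libraries, and TUBA1B at 6 h was 0.03 with libraries scaled to total counts.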

How the results depend on the processing

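Of 3779 values recomputed for 130 results of the 10 genes, 3671 kept direction and call, 46 lost the call, 62 gained one and none reversed. Members called from 24 to 48 h numbered 1 in the reported fit, 2 with DESeq2's size factors, with at least 10 counts in every library or with DESeq2, 3 with total counts, 4 without a low-count filter, and 5 with the GC trend removed, with the replicate block and GC trend, or with only the 2 time points. From 48 to 72 h there were 1 without a filter and 1 with the replicate block and GC trend, against 0. From 0.5 to 1.5 h there were 5 with only the 2 time points, against 3. Of all genes, 30 were called at 0.5 h, but 1538 without a filter, 55 with the GC trend removed, 67 with block and GC trend, 12 with only the 2 time points, 87 with DESeq2 and 18 at an adjusted p under 0.01. At 1.5 h 3003 became 1098 with only the 2 time points and 1160 at 0.01, and at 3 h 7370 became 4823 with only the 2 time points. The causes were not tested.

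Leaving out 1 library gave 1 to 3 members from 24 to 48 h, the 3 without either 0 h library or either 3 h library. Of all genes it gave 20 genes at 0.5 h (without 0.5 h replicate 2) to 3585 (without 0 h replicate 1), and 1006 (without 0 h replicate 2) to 5008 (without 0 h replicate 1) at 1.5 h. A lone remaining library was assumed to vary like the others. The replicate block left the members called at 9 of 10 at 6 h and made 10 at 72 h, adding TUBB (−0.34, adjusted p 0.012). Depth limits TUBB1, with 28 to 88 reads up to 24 h.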
